A study of Mus musculus with 12 samples.

Results

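The genes described here are 10 transcripts of the integrated stress response, the program built around the transcription factors ATF4 and CHOP: Atf4, Atf5, Ddit3 (which encodes CHOP), Nupr1, Ppp1r15a, Trib3, Ddit4, Sesn2, Eif4ebp1 and Chac1. They were taken by symbol from a list of known members of the program, and all 10 were found among the 18876 genes listed in any library. The list was chosen with earlier results of these data known. The share of the 10 genes called, set beside that of all genes, is therefore a description. RNA-seq was made from primary oligodendrocyte progenitors of wild-type mice, the cells from which myelinating oligodendrocytes form. Every group was treated for 12 h. The control group received vehicle (DMSO), the second group 50 µM hemin, the third 50 µM hemin with 10 ng/mL interleukin-10 (IL-10), and the fourth 50 µM hemin with 10 ng/mL IL-10 and 2.5 µM stattic. Ferric heme, or hemin, is what blood leaves in tissue after a bleed. IL-10 is an anti-inflammatory cytokine that acts through the transcription factor STAT3, which stattic inhibits. Each group had 3 libraries. No label says that the libraries of a group came from separate cultures or animals, so the p-values measure the spread between these libraries, which may be technical. No group received IL-10 or stattic without hemin.

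As background, the integrated stress response starts when a kinase phosphorylates the translation factor eIF2: HRI (gene Eif2ak1) responds to heme shortage and mitochondrial stress, PERK (Eif2ak3) to misfolded protein in the endoplasmic reticulum, GCN2 (Eif2ak4) to amino acid shortage and PKR (Eif2ak2) to double-stranded RNA. General translation then slows, while the Atf4 and Atf5 messages, which carry short upstream reading frames, are translated better. ATF4 turns on genes of amino acid supply together with Ddit3, Trib3, Chac1 and Nupr1, and the program feeds back on itself through Ppp1r15a. In oligodendrocytes the PERK arm is known from models of demyelinating and hypomyelinating disease. A messenger level does not show the phosphorylation of eIF2 or the amount of ATF4 protein, and neither was measured here.

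ATF4 binds a composite C/EBP-ATF response element, and AP-1 factors bind a shorter palindrome, so the promoters in which those letters occur are shown first. Promoter windows of 300 bases, from 250 before to 50 after the annotated start, were taken from RefSeq (build GRCm38.p6). They were found for 9 of the 10 genes, and Eif4ebp1 has no entry. Atf5 has a second window. Matches are counted by gene for the 9, while the shares of all windows are counted by window. The response element core, TGATGNAA on either strand, occurred in the windows of Chac1, Nupr1 and Trib3, which is 3 of 9, against 3.97% of 32851 windows of the same length. The match began 193 bases before the start in Chac1 and 110 bases before it in Nupr1, both read as TTGCATCA on the gene's strand. In Trib3 it began 15 bases after the start, as TTACATCA. A short stretch just after that start was in no Trib3 transcript of the mouse annotation (GENCODE M21). The same stretch of every other window was found, so the position in Trib3 is less sure. The AP-1 site, TGANTCA, occurred in the window of Ddit3 alone, beginning 242 bases before the start. That is 1 of 9, near the 7.81% of all windows. The next lines give the 250 bases before the start, 5′ to 3′ on the gene's strand, with the response element core or the AP-1 site in capitals. The intervals are chr2:119350992-119351241 on the plus strand for Chac1, chr7:126625471-126625720 on the minus strand for Nupr1 and chr10:127290543-127290792 on the plus strand for Ddit3.
Chac1: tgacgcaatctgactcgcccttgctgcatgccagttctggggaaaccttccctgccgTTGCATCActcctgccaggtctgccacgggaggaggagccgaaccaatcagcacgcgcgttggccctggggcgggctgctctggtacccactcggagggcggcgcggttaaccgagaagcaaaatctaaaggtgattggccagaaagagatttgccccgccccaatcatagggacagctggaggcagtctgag
Nupr1: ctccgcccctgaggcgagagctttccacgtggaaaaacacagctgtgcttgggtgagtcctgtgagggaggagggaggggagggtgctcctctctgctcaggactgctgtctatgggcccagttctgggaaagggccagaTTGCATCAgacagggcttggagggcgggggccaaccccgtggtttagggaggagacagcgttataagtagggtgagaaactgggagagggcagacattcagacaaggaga
Ddit3: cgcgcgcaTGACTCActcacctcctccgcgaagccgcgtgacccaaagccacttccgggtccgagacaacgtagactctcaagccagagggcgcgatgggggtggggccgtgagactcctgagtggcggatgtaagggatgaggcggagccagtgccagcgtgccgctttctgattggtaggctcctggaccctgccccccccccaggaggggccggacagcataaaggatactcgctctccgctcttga
Searched in the same way, the antioxidant response element core TGACNNNGC occurred in Ppp1r15a and Sesn2, which is 2 of 9, against 12.4% of windows. The ER stress response element (CCAAT and CCACG with 9 bases between them, 0.119% of windows) and the heat shock element (GAA, TTC and GAA with 2 bases between neighbours, 0.603%) occurred in none of the 9. No matches overlapped. Of the amino acid genes listed further below, 20 had an entry, and the response element core was in a window of 7 of them. A match is a description of letters and does not show binding.

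Hemin raised 8 of the 10 genes over vehicle and lowered none (edgeR quasi-likelihood test, Benjamini-Hochberg adjusted p under 0.05 over the 13967 genes tested). Across all genes tested, 11.7% were called higher and 9.15% lower (1639 and 1278 genes). The balance of all genes moved with the scaling, to 1395 higher and 1593 lower with library totals in place of TMM factors (trimmed mean of M values), and to 955 and 1650 on log2(FPKM + 1), while the members called were 8 with library totals and 6 on log2(FPKM + 1), where Nupr1 and Trib3 were lost. Levels are given as CPM, counts brought to a common library size, which compare 1 gene between libraries, and changes as the log2 difference of hemin minus vehicle with its standard error (SE). The median change of the 10 genes was 2.99, against 0.03 over all genes tested, and single genes ranged from 0.34 for Ddit4 to 4.64 for Ppp1r15a. In those 8 genes all 3 hemin libraries lay above all 3 vehicle libraries, an arrangement found for 25.6% of all genes. Atf5 and Ddit4 did not pass the test.

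**Figure D1:**
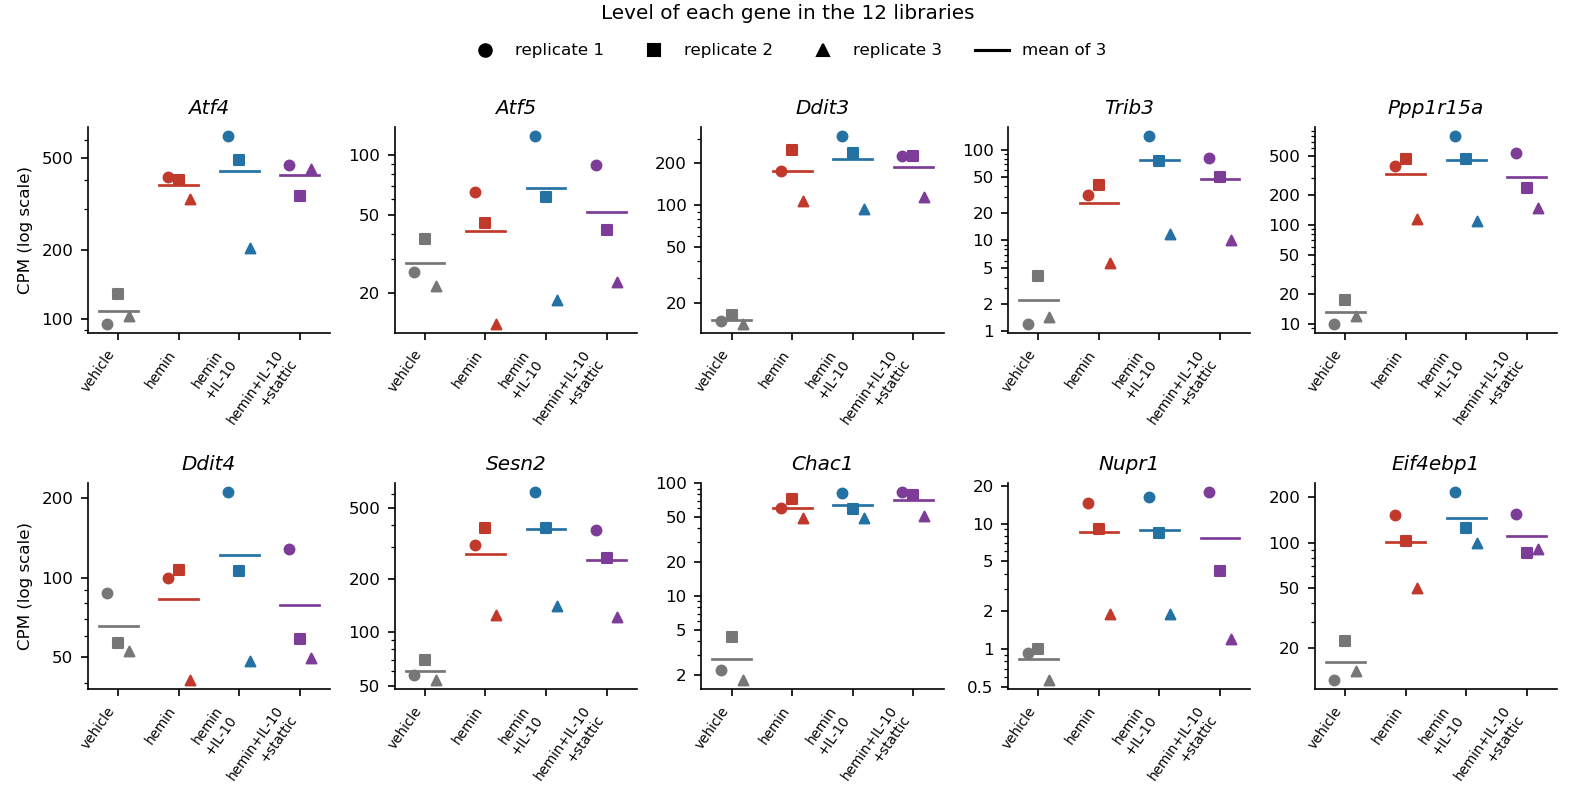
CPM on a log scale for each gene (1 panel a gene) in the 3 libraries of each of the 4 groups, with symbols for replicate number and a line at the mean of 3. The hemin libraries of Chac1 lie between 49.1 and 73.1 CPM, close together, while those of Trib3 run from 5.61 to 40.5 CPM.

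Atf4, the central transcription factor, stood at 95.6, 128 and 103 CPM in vehicle replicates 1 to 3 and at 413, 401 and 331 CPM in the hemin replicates. The groups did not overlap, and the mean rose from 109 ± 17.0 to 382 ± 44.3 CPM (SD, n = 3), a log2 change of 1.81 (SE 0.34, edgeR adjusted p = 0.00492). It was the smallest change among the 8 genes that rose and belonged to the gene that was already highest before treatment. Atf4 alone among the 10 had fractional expected counts, in 11 of 12 libraries. An estimated count becomes fractional when reads are divided between similar sequences, and what that did to the Atf4 level was not tested.

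Ddit3, which encodes the CHOP factor that ATF4 induces, stood at 14.8, 16.4 and 14.2 CPM in vehicle, the tightest control values of the 10 genes. The hemin libraries held 177, 248 and 107 CPM. Every hemin library was thus several times above every control, with a log2 change of 3.55 (SE 0.47, 95% CI from 5.80- to 23.7-fold, edgeR adjusted p = 7.60e-04). In the mouse annotation (GENCODE M21) Ddit3 overlaps 2 genes on the opposite strand, Gm4189 and Mars (Mars1 in the deposited files), which encodes methionyl-tRNA synthetase. Per the labels' protocol the libraries were made with dUTP in the second strand, but the sources used here do not give whether the counting used strand. The Mars1 level was 110 CPM with hemin and 103 CPM with vehicle, a log2 change of 0.09 (edgeR adjusted p = 0.845), so the neighbour did not pass the test where Ddit3 did.

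Atf5, a factor related to ATF4 and under the same translational control, held 25.7, 37.7 and 21.8 CPM in vehicle and 64.8, 45.6 and 14.1 CPM with hemin. Hemin replicates 1 and 2 were above all controls and replicate 3 was below all of them. The log2 change was 0.55 (SE 0.68, 95% CI from 0.528- to 4.05-fold, edgeR adjusted p = 0.599), and the interval held a fall as well as a rise as large as that of Atf4. Atf5 overlaps Nup62 and Il4i1 on the opposite strand. Nup62 had a log2 change of 0.48 (edgeR adjusted p = 0.0901).

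Nupr1, a small stress-induced chromatin-associated regulator, was low in controls, at 0.928, 1.01 and 0.571 CPM, which rest on 10, 11 and 6 counts. With hemin it held 14.7, 9.02 and 1.90 CPM. The groups did not overlap, but hemin replicate 3 exceeded the highest control by less than hemin replicate 1 exceeded hemin replicate 2. The log2 change was 3.33 (SE 1.05, 95% CI from 2.06- to 49.3-fold, edgeR adjusted p = 0.0420). The call was lost without any 1 of the 3 vehicle libraries, hemin replicate 1 or 2, or IL-10 replicate 2, where the log2 change was between 2.68 and 3.48 and the adjusted p reached 0.132.

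Ppp1r15a encodes GADD34, the inducible subunit that directs protein phosphatase 1 to eIF2 and so ends the response. It stood at 10.0, 17.5 and 11.8 CPM in vehicle and at 398, 466 and 114 CPM with hemin. Its log2 change of 4.64 (SE 0.79, 95% CI from 7.60- to 81.4-fold, edgeR adjusted p = 0.00292) had the largest estimate of the 10, with hemin replicate 3 well below the other two. It overlaps Tulp2 on the opposite strand. The constitutive counterpart Ppp1r15b (CReP) held 175 ± 42.3 CPM with hemin and 135 ± 11.6 CPM with vehicle, a log2 change of 0.37 (edgeR adjusted p = 0.567).

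Trib3, a pseudokinase that CHOP induces and that restrains ATF4 and AKT, stood at 1.21, 4.02 and 1.43 CPM in vehicle and at 31.4, 40.5 and 5.61 CPM with hemin. Hemin replicate 3 lay just above the highest control, and the other hemin libraries several times above it. The log2 change was 3.53 (SE 1.03, 95% CI from 2.45- to 54.5-fold, edgeR adjusted p = 0.0303). The call was lost without any 1 of the 3 vehicle libraries and without hemin replicate 1 or 2, with log2 changes between 3.05 and 4.28 and an adjusted p of up to 0.112.

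Ddit4, Sesn2 and Eif4ebp1 act on the growth kinase complex mTORC1 or on its output. Ddit4 (REDD1), which inhibits mTORC1 through the TSC complex, held 87.4, 56.6 and 52.7 CPM in vehicle and 100, 107 and 41.0 CPM with hemin. The groups overlapped, with the lowest library in the hemin group, and the log2 change was 0.34 (SE 0.53, 95% CI from 0.570- to 2.79-fold, edgeR adjusted p = 0.686). Sesn2, a leucine sensor that restrains mTORC1 and counters oxidants, stood at 57.2, 69.6 and 53.9 CPM in vehicle and at 308, 386 and 125 CPM with hemin. Its groups did not overlap, with a log2 change of 2.18 (SE 0.56, edgeR adjusted p = 0.0178), and the call was lost without any 1 of the 3 vehicle libraries or without hemin replicate 2 (log2 1.85 to 2.30, adjusted p up to 0.0707). In the annotation Sesn2 shares its strand and locus with Gm12981. Eif4ebp1 encodes 4E-BP1, the repressor of cap-dependent translation that mTORC1 inactivates. It held 12.4, 22.4 and 14.2 CPM in vehicle and 153, 103 and 50.5 CPM with hemin, all above the controls, with a log2 change of 2.64 (SE 0.45, 95% CI from 3.19- to 12.2-fold, edgeR adjusted p = 0.00284).

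Chac1 encodes a gamma-glutamyl cyclotransferase that degrades glutathione. It stood at 2.23, 4.30 and 1.81 CPM in vehicle and at 60.5, 73.1 and 49.1 CPM with hemin. All 3 hemin libraries were far above the highest control and close to each other, unlike those of the other strongly raised genes. The log2 change was 4.45 (SE 0.38, 95% CI from 12.4- to 38.4-fold, edgeR adjusted p = 4.29e-05), the smallest adjusted p of the 10. Its constitutive relative Chac2 did not pass the test (log2 0.56, edgeR adjusted p = 0.278).

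**Figure D2:**
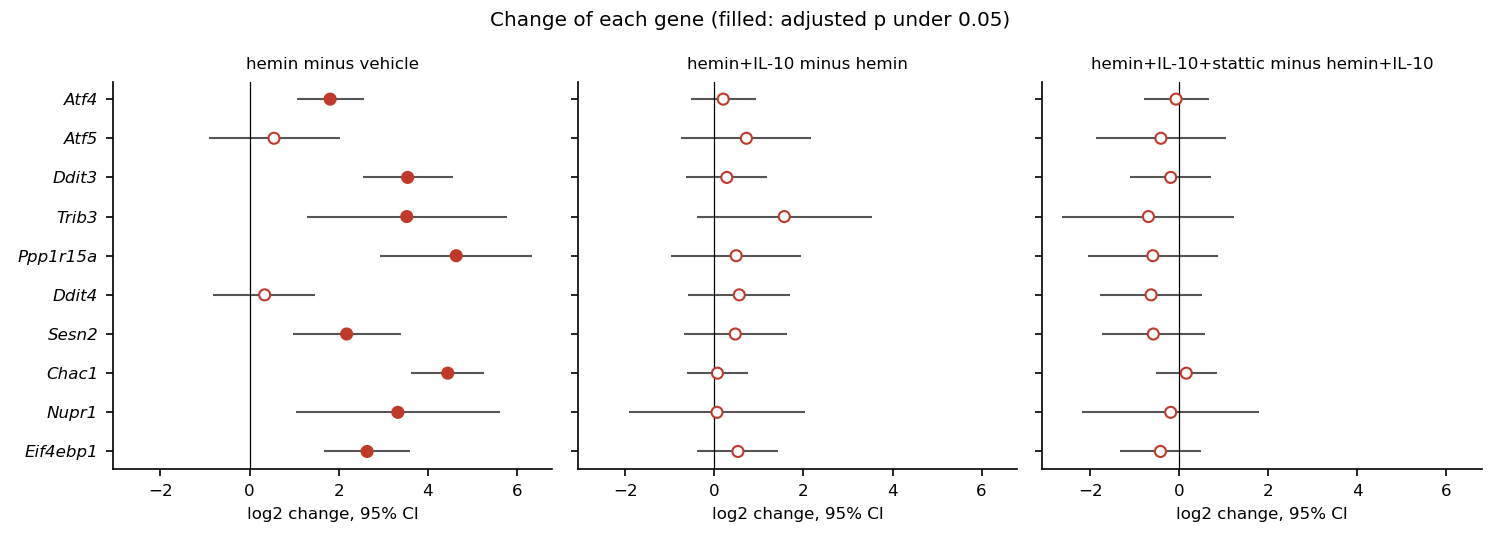
Log2 change of each gene with its 95% confidence interval, in 3 comparisons (1 panel each), with filled points for an adjusted p under 0.05. In the left panel 8 genes are filled, with the narrow interval of Chac1 (log2 4.45) beside the wide ones of Trib3 and Nupr1, and in the other panels all points are open and all intervals cross 0.

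The calls differed in how firm they were. Atf4, Ddit3, Ppp1r15a, Chac1 and Eif4ebp1 passed the test against vehicle under all 12 other settings and in each of 12 fits that left a library out. Nupr1, Trib3 and Sesn2 did not. With limma-voom and on both log2 FPKM scales 6 of the 10 were called, without Nupr1 (log2 2.33 to 2.89, limma adjusted p up to 0.138) and Trib3 (log2 2.41 to 3.30, limma adjusted p up to 0.153). Sesn2 was lost only where a library was left out. The count of genes called higher fell from 8 to 5 when any 1 of the 3 vehicle libraries or hemin replicate 2 was left out. The background moved too: of all genes, 2917 were called with every library and 1329 without hemin replicate 2.

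**Figure D3:**
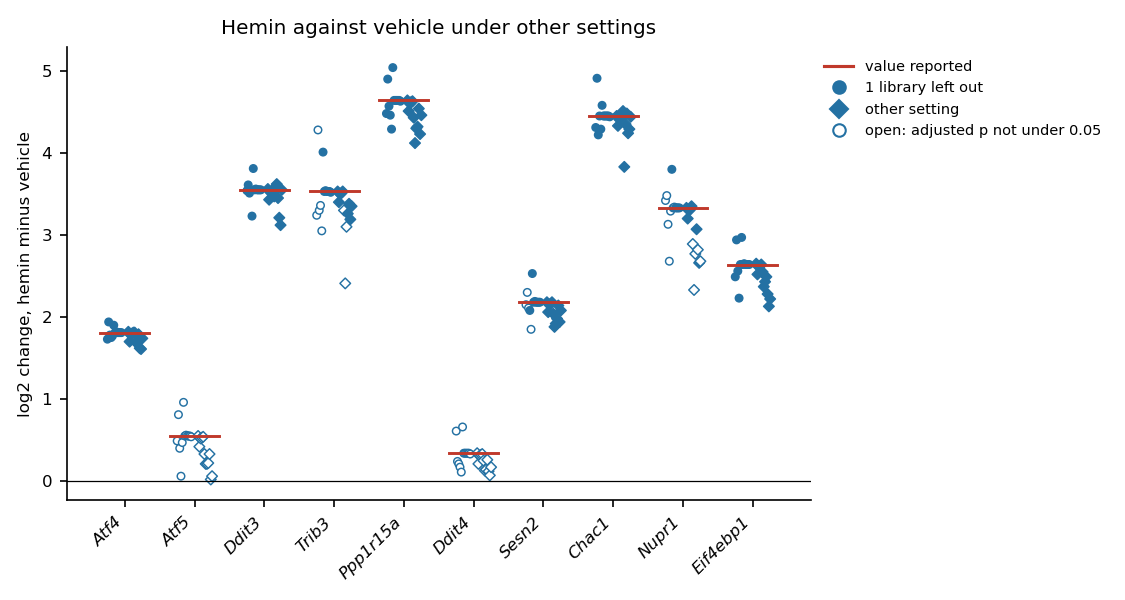
Log2 change of hemin minus vehicle for each gene, as reported (red line), with 1 library left out (circles) and under other settings (diamonds), open where the adjusted p is not under 0.05. The symbols of Atf4 stay between 1.61 and 1.94 and are filled, those of Atf5 and Ddit4 are open throughout, and some of Nupr1, Trib3 and Sesn2 are open.

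Levels of different genes can be compared only per length, as FPKM (fragments scaled for transcript length and sequencing depth). In vehicle, Atf4 was highest at 72.8 ± 11.2 FPKM (SD, n = 3), followed by Ddit4 at 45.6 ± 13.3 and Sesn2 at 25.4 ± 3.47 FPKM. Sesn2, Eif4ebp1, Atf5 and Ddit3 followed each other with overlapping libraries, and Ppp1r15a stood apart below them at 6.37 ± 1.87 FPKM. Chac1, Nupr1 and Trib3 were lowest, from 2.07 down to 1.24 FPKM, again with overlapping libraries. With hemin the order changed. Atf4 (236 ± 17.5 FPKM) and Ddit3 (227 ± 83.6 FPKM) overlapped at the top, and Ppp1r15a took the third place at 144 ± 79.8 FPKM, ahead of Eif4ebp1 at 120 ± 57.4 and Sesn2 at 105 ± 49.0. Ddit4, the second in vehicle, was the sixth at 52.5 ± 21.7 FPKM. Every pair of neighbours in the hemin order had overlapping libraries. Atf5 held 25.1 ± 15.1 FPKM, and Nupr1 and Trib3 stayed lowest, at 16.9 ± 12.5 and 13.2 ± 9.05 FPKM.

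Adding IL-10 to hemin called none of the 10 genes, and none of the 13967 genes tested (0%, edgeR), where 337 genes (2.41%) and none of the 10 had an unadjusted p under 0.05. DESeq2 called 3 genes of all and limma-voom 0, none of them among the 10. The largest estimate belonged to Trib3, which held 143, 76.2 and 11.8 CPM in the IL-10 replicates against 31.4, 40.5 and 5.61 CPM with hemin alone. Each IL-10 library was above the hemin library of the same number, but IL-10 replicate 3 was below hemin replicates 1 and 2, so the groups overlapped, and the log2 change was 1.57 (SE 0.91, 95% CI from 0.758- to 11.7-fold, edgeR adjusted p = 0.999). Ddit3 held 315, 236 and 93.9 CPM with IL-10, on both sides of its hemin values, with a log2 change of 0.28 (SE 0.42, 95% CI from 0.643- to 2.28-fold). For Chac1 the IL-10 libraries held 82.6, 59.7 and 49.3 CPM, and the interval of its change, 0.651- to 1.69-fold, was the narrowest of the 10. Atf4 held 624, 491 and 204 CPM, the first pair above and the last below every hemin library (log2 0.20, 95% CI from 0.696- to 1.91-fold). The estimates of the remaining genes lay between 0.06 for Nupr1 and 0.72 for Atf5, each with an interval across 0. IL-10 replicate 1 was the highest of the 9 libraries with hemin for 8 of the 10 genes, as it was for 16.9% of all genes tested. Without that library the log2 changes of 8 genes were between -0.72 and -0.06, that of Eif4ebp1 was 0.14 and that of Trib3 was 0.77. Same-numbered libraries deviated together in this comparison. Like Trib3, Atf5 (125, 61.1 and 18.6 CPM with IL-10, 64.8, 45.6 and 14.1 with hemin) and Eif4ebp1 (217, 125 and 100 CPM, and 153, 103 and 50.5) were higher with IL-10 at every replicate number. The share of all genes tested with that order was not counted, and the labels do not say that the numbers pair libraries. The order is therefore a description only. With the replicate number as a block 1 gene of all was called and none of the 10.

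Adding stattic to hemin and IL-10 also called none of the 10 genes and none of all genes (0%, edgeR), where 523 genes (3.74%) and none of the 10 had an unadjusted p under 0.05. DESeq2 called 0. The stattic replicates held 82.0, 50.6 and 10.1 CPM for Trib3, within the range of the IL-10 libraries except at its lower edge (log2 -0.69, SE 0.89, 95% CI from 0.162- to 2.36-fold). Ppp1r15a held 799, 467 and 109 CPM with IL-10 and 534, 235 and 147 CPM with stattic added, overlapping groups with a log2 change of -0.59 (SE 0.67, 95% CI from 0.242- to 1.84-fold). Sesn2 held 612, 384 and 140 CPM without and 376, 260 and 122 CPM with stattic (log2 -0.58, 95% CI from 0.299- to 1.49-fold). Ddit4 held 211, 106 and 48.2 CPM without and 128, 58.3 and 49.5 CPM with stattic (log2 -0.63, 95% CI from 0.291- to 1.43-fold). The 10 estimates lay between -0.69 for Trib3 and 0.16 for Chac1. This comparison and that of IL-10 with hemin share the IL-10 libraries, so opposite signs in them say nothing further. None of these misses shows that the groups had equal levels.

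Set against vehicle, each of the combined treatments gave the same 8 calls as hemin alone and left out Atf5 and Ddit4, though the Nupr1 call with stattic was lost in 13 of 24 alternatives. The background of genes called higher was 12.1% without and 14.7% with stattic, and that of genes called lower 8.81% and 10.2%. With library totals in place of TMM, higher and lower calls went from 1696 and 1231 to 1317 and 1665 for IL-10, and from 2048 and 1424 to 1414 and 2208 with stattic. The median of all genes then lay at -0.13 and -0.14, and with stattic 7 of the 10 genes were called, without Nupr1. All 3 comparisons share the vehicle libraries and cannot be read as repeats of each other. The log2 changes for hemin, with IL-10 and with IL-10 and stattic were 1.81, 2.01 and 1.95 for Atf4. For Ddit3 they were 3.55, 3.83 and 3.64, and for Chac1 4.45, 4.51 and 4.67. Ppp1r15a gave 4.64, 5.13 and 4.54, Sesn2 2.18, 2.65 and 2.07, and Eif4ebp1 2.64, 3.17 and 2.76. Trib3 gave 3.53, 5.11 and 4.41, and Nupr1 3.33, 3.39 and 3.19. Atf5 reached 1.27 with IL-10 (SE 0.68, edgeR adjusted p = 0.207) and 0.85 with stattic added, and Ddit4 reached 0.89 (SE 0.53, edgeR adjusted p = 0.253) and 0.26. With stattic added, the count fell from 8 to 5 without vehicle replicate 1 or 3, where Nupr1, Trib3 and Sesn2 were not called. With IL-10, the Nupr1 call was lost without any 1 of the 3 vehicle libraries, hemin replicate 2, or IL-10 replicate 1 or 2 (adjusted p up to 0.133), and also by limma-voom, on both log2 FPKM scales and with the length offset. With stattic added it was lost in those settings too, with only the compared groups in the fit, and without stattic replicate 1 (log2 1.68, edgeR adjusted p = 0.214) or 2, hemin replicate 2, IL-10 replicate 2 or any 1 of the vehicle libraries.

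The 10 genes differed in how evenly they responded across libraries. The highest of the 9 libraries with hemin exceeded the lowest 1.71-fold for Chac1, 3.05-fold for Atf4 and 3.36-fold for Ddit3. The ratio was 4.31 for Eif4ebp1, 5.0 for Sesn2, 5.15 for Ddit4, 7.33 for Ppp1r15a and 8.88 for Atf5, and reached 14.8 for Nupr1 and 25.5 for Trib3. For 9 of the 10 genes it was above 3, against 42.4% of all genes tested. Replicate 3 was the lowest library for 10 of 10 genes in the hemin group and in the IL-10 group and for 8 of 10 with stattic, against 38.6%, 41.3% and 38.1% of all genes. In all of those groups at once it was lowest for 8 of 10, against 13.2% of all genes. In vehicle it was lowest for 6 of 10, against 31.3%. Replicate 1 was the highest for 10 of 10 genes in the IL-10 and in the stattic group (36.8% and 31.4% of all genes), and for 4 of 10 with hemin alone (41.6%). The labels do not say what a replicate number stands for.

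The deposited totals ran from 9404448 to 10266653 counts a library, with 15051 to 16899 genes listed. Hmox1, which encodes heme oxygenase-1 and answers to heme, rose from 39.0 ± 15.3 to 5668 ± 2904 CPM with hemin (log2 7.18, edgeR adjusted p = 3.68e-04). All 10 oligodendrocyte progenitor markers on the list used (Pdgfra, Cspg4, Olig1, Olig2, Sox10 and others) were listed. Their summed level was 4895 to 7065 CPM in vehicle, 2059 to 3104 with hemin, 1516 to 2962 with IL-10 and 1025 to 2282 with stattic. Of the 10 markers, 3 were called lower with hemin. Across all genes tested, hemin gave 11.7% called higher and 9.15% lower. In bulk RNA, fewer cells of a type and less RNA per cell cannot be told apart. Microglia and macrophage markers summed to 8.76 to 36.1 CPM in vehicle and 50.8 to 166 with hemin, with 3 of 11 tested called higher, and to 25.5 to 56.7 with IL-10 and 72.9 to 161 with stattic. Fibroblast, mural and endothelial markers summed to 5.21 to 8.35 CPM in vehicle and 50.4 to 186 with hemin, with 5 of 8 called higher, and to 20.1 to 64.7 with IL-10 and 31.8 to 86.9 with stattic. Astrocyte markers summed to 2251 to 6280 CPM in vehicle, 1929 to 2889 with hemin, 867 to 2421 with IL-10 and 1074 to 3888 with stattic. Of these markers 1 of 8 was called lower with hemin, near the share of all genes. Neuron markers summed to 852 to 1101 CPM in vehicle and 1117 to 1432 with hemin, with 3 of 8 called higher, and to 955 to 1290 with IL-10 and 798 to 1325 with stattic. Of the 12 libraries, hemin replicate 1 held the highest microglia and the highest fibroblast, mural and endothelial sum, and without it the hemin change was 3.55 for Ddit3, 4.45 for Chac1, 4.46 for Ppp1r15a, 2.23 for Eif4ebp1 and 1.75 for Atf4. Nupr1 (2.68) and Trib3 (3.36) were then not called, which left 6 of the 10. The other hemin libraries still held 71.1 and 50.8 CPM of microglia and macrophage markers and 50.4 and 73.0 CPM of fibroblast, mural and endothelial markers, above every vehicle library. The part of other cells in the changes of the 10 genes was not tested.

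Transcript length moved with the libraries. With genes cut into 5 equal groups by length, the median log2 difference of the shortest group from the vehicle mean was 1.09 in stattic replicate 3 and 0.45 in hemin replicate 1, and that of the longest group -0.83 and -0.45, while the vehicle libraries stayed between -0.05 and 0.06. The 10 genes are short, from 639 bases for Nupr1 to 2677 for Sesn2, with 7 in the shortest group and Trib3, Ppp1r15a and Sesn2 in the next. With a length offset for each library the hemin change of Atf4 was 1.62, and Nupr1 was no longer called (log2 2.82, edgeR adjusted p = 0.108), while the other 7 calls held. Without hemin replicate 1 and stattic replicate 3, the libraries with the steepest trend, Atf4 changed by 1.74, Ddit3 by 3.55, Eif4ebp1 by 2.22 and Nupr1 by 2.68 (edgeR adjusted p = 0.072), and the other 7 calls held.

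Upstream of the 10 genes, 9 messages of the eIF2 kinases and their regulators were tested. With hemin 1 of the 9 was called higher and none lower, against 11.7% and 9.15% of all genes. The 9 changes ran from -0.94 to 1.28 with a median of -0.12, and 4 had an unadjusted p under 0.05 (edgeR). With the length offset 3 were higher and the median was 0.03. The member called was Eif2ak3, which encodes PERK (log2 0.99, edgeR adjusted p = 0.0147, lost in 3 fits with 1 library left out, up to 0.0734). Eif2ak1, which encodes the heme-regulated kinase HRI, held 62.5 ± 5.27 CPM with hemin and 68.1 ± 6.28 with vehicle (log2 -0.12, edgeR adjusted p = 0.635). GCN2 (Eif2ak4) had a log2 change of 0.89, its inhibitor Impact 1.28, and Oma1, the mitochondrial protease that cuts the HRI activator, -0.64. None of these passed the test (edgeR adjusted p = 0.0677, 0.0674 and 0.103). The lowest value, -0.94, was that of PKR (Eif2ak2), which held 21.6 ± 3.69 CPM with hemin and 41.3 ± 11.4 with vehicle and did not pass either (edgeR adjusted p = 0.239). Of the 13 messages of eIF2, eIF2B and the eIF2 phosphatase, 1 was higher and none lower, with a median of 0.23. These shares are no larger than the 11.7% and 9.15% of all genes. The gene called was Eif2s2, the beta subunit of eIF2 (log2 1.47, edgeR adjusted p = 0.00311).

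Beside the 10 genes, 5 of 10 bZIP partners, with which ATF4 and CHOP can pair or share sites, were higher with hemin. None was lower, and the median was 1.77. Of all genes tested, 11.7% were called higher and 9.15% lower. Atf3 rose from 1.48 ± 0.722 to 265 ± 98.1 CPM (log2 7.46, edgeR adjusted p = 5.62e-05), Fos changed by 4.70, Cebpb by 4.92 and Jdp2 by 1.67 (edgeR adjusted p = 2.87e-05, 5.07e-04 and 0.00204). Of 26 amino acid and tRNA targets of ATF4, 12 were higher and none lower, against the same shares of all genes, with a median of 1.17. They included the cysteinyl-tRNA synthetase Cars (log2 1.62, edgeR adjusted p = 0.00176), the folate enzyme Mthfd2 (1.72, 0.00601), the transporter chain Slc3a2 (2.73, 0.00643) and the proline synthesis enzyme Aldh18a1 (1.34, 0.00841). Asparagine synthetase, Asns, rose from 60.0 ± 11.0 to 247 ± 117 CPM (log2 2.04, edgeR adjusted p = 0.00998), a call lost in 1 fit with 1 library left out (0.0501). With IL-10, 18 of the 26 were higher than in vehicle, and 14 with stattic added, against 12.1% and 14.7% of all genes. Those counts were not tested against each other.

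Of 6 secreted and surface targets, 4 were higher and none lower, against 11.7% and 9.15% of all genes. With the length offset 6 were higher. Gdf15, a stress hormone that acts on the hindbrain, changed by 6.59 (edgeR adjusted p = 0.00627) and the glycoprotein hormone Stc2 by 2.61 (0.0146, lost in 2 fits with 1 library left out). The metabolic hormone Fgf21 had no count in vehicle and 83 over the 3 hemin libraries. With 3 counts put in for the vehicle group the ratio was 29.9. That ratio leaves out the spread between libraries and is not a lower limit. The peptide Adm2 had 39 counts against 1 (ratio 42.1, exact 95% interval from 7.13 to 1706, counting error only). The median of the list was 3.76, or 3.75 with Fgf21 at the ratio of 29.9. The list of 8 genes linked to CHOP and cell death includes some that favour survival. Of the 8, 2 were higher and none lower, against 11.7% and 9.15% of all genes, with a median of 1.20. They were the BH3-only genes Bcl2l11, or Bim (log2 1.72, edgeR adjusted p = 0.0121), and Pmaip1, or Noxa (3.58, 0.0173, lost in 4 fits with 1 library left out). The oxidase Ero1a (2.21, 0.0553) and the pore former Bax (0.69, 0.0693) did not pass.

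Of 16 mTORC1 regulators and paralogs tested, of 18 on the list, 2 were higher and 3 lower, with a median of -0.28. Against 11.7% and 9.15% of all genes, the share called higher is near the background. The share called lower is above it but rests on 3 genes. With the length offset 3 were higher and 2 lower. While Eif4ebp1 rose, its paralog Eif4ebp2 fell from 232 ± 13.3 to 94.7 ± 29.5 CPM (log2 -1.29, edgeR adjusted p = 0.00861). While Sesn2 rose, Sesn3 fell from 73.5 ± 7.87 to 35.7 ± 2.79 CPM (log2 -1.04, edgeR adjusted p = 0.0160, lost in 2 fits with 1 library left out), and Sesn1 did not pass (log2 -0.36, edgeR adjusted p = 0.356). Ddit4l, the paralog of Ddit4, held 82.4 ± 84.0 CPM with hemin and 12.8 ± 1.82 with vehicle and did not pass (log2 2.68, edgeR adjusted p = 0.0916). Rheb, the activator of mTORC1, rose by 1.58 (edgeR adjusted p = 5.63e-04) and the arginine sensor Castor1 by 4.56 (0.00398, from 0.337 to 8.32 CPM). The third fall was that of Tsc2 (log2 -0.62, edgeR adjusted p = 0.0465), which 8 of the 12 fits that left a library out did not keep.

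In the other branches of the unfolded protein response, run by IRE1 and ATF6, 18 genes were tested and 2 were higher and none lower, with a median of 0.08, a share called higher near the 11.7% of all genes. With the length offset 5 were higher, at a median of -0.03. The 2 without the offset were Herpud1, a membrane protein of ER-associated degradation (log2 2.59, edgeR adjusted p = 4.28e-04), and Xbp1 (1.23, 0.0123, lost in 2 fits with 1 library left out). The ER chaperone Hspa5 held 1338 ± 883 CPM with hemin and 477 ± 146 with vehicle (log2 1.49, edgeR adjusted p = 0.181). The co-chaperone Dnajb9 (2.02, 0.0728) and the sensor Atf6 (0.99, 0.101) did not pass. In the deposited pathway annotation, Atf4, Ddit3 and Ppp1r15a carry the term for protein processing in the endoplasmic reticulum, which 0.848% of the 18876 listed genes carry. Ddit4, Sesn2 and Eif4ebp1 carry the term for mTOR signalling (0.784%).

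**Figure D4:**
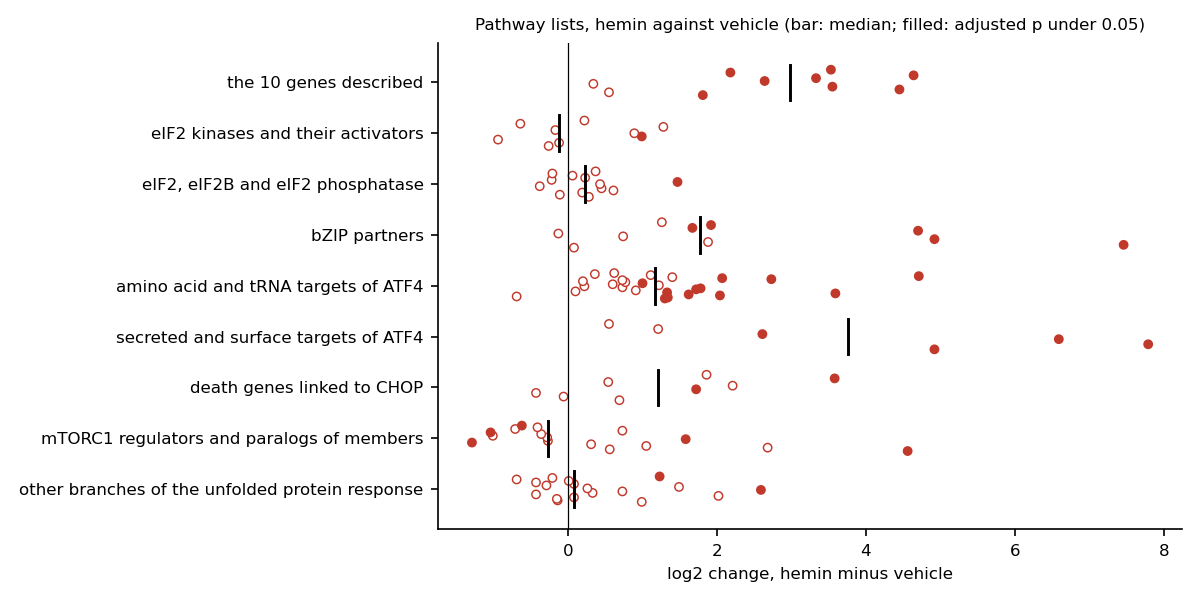
Log2 change of hemin minus vehicle for every tested gene of each list (1 row a list), filled for an adjusted p under 0.05, with a bar at the median. The bar of the 10 genes is at 2.99 and that of the eIF2 kinases at -0.12, and the points of Fgf21 and Adm2 at the right of the secreted row are fitted values that depend on how 0 or 1 count in vehicle is handled.

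Across the 12 libraries, the genes whose log2 CPM followed Atf4 most closely were Sertad1 (Pearson r = 0.976), Dusp2 (0.974) and Dusp5 (0.974), out of all tested genes outside the 10. For Ddit3 they included Mafk (0.991) and Dusp1 (0.990). The 12 points share the contrast of 9 libraries with hemin to 3 without, and the coefficients are a description with no test.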

How the data were processed

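RNA-seq was analysed from 12 libraries, 3 in each of 4 groups, grouped by the treatment in the labels. Per the file headers, the authors deposited an expected count (an estimated read count per gene) and an FPKM value for each gene listed. Tools named in the submitters' processing notes, without versions or roles, are RSEM, Bowtie2, Bowtie, HISAT, StringTie, TopHat, Cufflinks and CASAVA. The genome build and the use of strand in counting are not given in the sources used here. Genes that a file did not list counted as 0 there.

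Expected counts were rounded and tested with edgeR 4.0.16 (R 4.3.3): filterByExpr, TMM factors, robust quasi-likelihood fit over all 12 libraries without a block, Benjamini-Hochberg adjustment over 13967 genes, threshold 0.05. CPM values use the TMM factors. Alternatives used limma 3.58.1 and DESeq2 1.42.0, among them limma on log2 FPKM with a pseudocount of 1 or 0.1 computed from the deposited FPKM. The test was run on simulated counts with independent libraries, the same spread in every group and few changed genes. Those counts held no length trend and no likeness of same-numbered libraries, so the check does not cover these features of the data. Depth was 9404448 to 10266653 counts a library. Of the symbols, 99.1% were in the RefSeq table.

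The 10 genes and all lists were chosen with earlier results of these data known. All 10 are named in each comparison. From each pathway list up to 4 genes with the smallest adjusted p for hemin against vehicle are named, and always Eif2ak1, Ppp1r15b, Atf3, Cebpb, Asns, Hspa5, Hmox1, Sesn1, Sesn3, Eif4ebp2 and Ddit4l, with the 3 genes most correlated with Atf4 and with Ddit3, of which 1 is not reported here. Genes that overlap the 10, and Chac2, Tsc2 and Eif2ak2, were named after their values were seen.

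For IL-10 added to hemin, deviations of same-numbered libraries correlated at 0.39, 0.17 and 0.62. Only there were replicate numbers read as pairing samples. That reading comes from the data, since the labels do not say what a number shares. The SE, intervals and p-values printed for that comparison are still those of the fit without a block. From the fit with the block only the calls are given.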

Additional observations from a re-analysis of the deposited data

How the results depend on the processing

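Vehicle libraries held few counts of Nupr1 (6 to 11), Trib3 (13 to 44) and Chac1 (19 to 47), which limits the precision of their fold changes. Members called higher with hemin ranged from 5 to 8 with 1 library left out, from 7 to 8 with IL-10 and from 5 to 8 with stattic added. Of all genes, 2917 were called for hemin against vehicle, 1329 to 4164 with 1 library left out, 4652 with only the compared groups in the fit and 4791 with a length offset and the replicate block. For hemin with IL-10 against vehicle the count of 2927 became 1190 to 4169 with 1 left out, 4517, 5039, and 4477 without hemin replicate 1 and stattic replicate 3. For stattic it was 3472, then 1599 to 3775, and 1865 with only the compared groups. For IL-10 added to hemin the 0 calls became 0 to 1 with 1 left out, 1 without a filter, 3 by DESeq2, 1 with the replicate block and 1 with the block and length offset. The block changed no call among the 10 genes in any comparison. Outside IL-10 added to hemin, at least 1 correlation of same-numbered libraries was not above 0.1 (0.06, -0.06, 0.05 and 0.09 at the lowest). The numbers were therefore not taken to pair those libraries. For stattic added to hemin and IL-10 the correlations were 0.67, -0.06 and 0.49, so some same-numbered libraries there deviated together. What the numbers share is not known.

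Changes of sign occurred only among changes that were not called. For IL-10 added to hemin, leaving out 1 library gave -0.14 to 0.55 (Atf4), -0.06 to 1.21 (Atf5), -0.11 to 0.63 (Ddit3), -0.18 to 0.96 (Ppp1r15a), -0.11 to 0.94 (Ddit4), -0.06 to 0.87 (Sesn2), -0.16 to 0.22 (Chac1) and -0.72 to 0.71 (Nupr1), and Nupr1 was -0.0022 and -0.0042 on log2(FPKM + 1) and log2(FPKM + 0.1). For stattic added it gave -0.41 to 0.27 (Atf4), -1.08 to 0.37 (Atf5), -0.55 to 0.19 (Ddit3), -1.34 to 0.11 (Trib3), -1.26 to 0.08 (Ppp1r15a), -1.17 to 0.03 (Ddit4) and -1.70 to 0.59 (Nupr1). There Atf4 was 0.07 by limma-voom and 0.02 with the replicate block, Chac1 -0.06 with block and length offset, and without hemin replicate 1 and stattic replicate 3 Ddit3 was 0.05 and Nupr1 0.29. For stattic against vehicle Ddit4 was -0.07 and -0.08 on the FPKM scales, -0.18 with block and length offset and -0.28 to 0.54 with 1 left out. The causes were not tested.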
